A study of Mus musculus with 10 samples.

Results

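Plasma cell genes were examined in the RNA of bone marrow HSPCs, the hematopoietic stem and progenitor cells that renew blood. The set held 9 genes of antibody-secreting cells, chosen by symbol among the 55573 gene rows of each count table: Jchain, Sdc1, Mzb1, Prdm1, Irf4, Tnfrsf17, Derl3, Pou2af1 and Tnfrsf13b. The cells came from C57BL/6 mice, 16 weeks of age, and every mouse had received 500 cGy of radiation to the whole body. Of the 10 libraries, 5 followed subcutaneous treatment with EGF (epidermal growth factor, which binds EGFR) and 5 subcutaneous treatment with saline, all taken 6 weeks after the irradiation. The sources used here give neither the dose of EGF nor the sort gate, and do not say that the 5 libraries of a group are 5 mice. The p-values rest on the spread among libraries, and that spread may be technical. The question is how EGF, set against saline, bears on transcripts of irradiated marrow.

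Library totals were 6805106 to 8370820 counts. EGF replicate 5 stood apart from the rest: 12731 genes had a count in it, against 18734 to 20046 in each of the other 9 libraries, so the members' fold changes and the medians of the gene lists are given with and without it. All 14 HSPC markers listed for a check of the labelled cells passed the filter on low counts, but in EGF replicate 5 Procr was at 0 counts and Cd48 at 6.02 CPM, against 42.5 to 49.2 CPM of Cd48 with saline. Ly6a and Cd34 were also lowest in that library, while Slamf1, Gata2, Meis1 and Hlf were higher there than in any other library. Slamf1 was at 33.2 CPM in it, against 7.80 to 19.3 CPM with saline. Kit, the stem cell factor receptor, lay between 447 and 505 CPM with EGF and between 380.3 and 448 CPM with saline, where CPM is the usual unit for counts scaled to library size, here after normalization between libraries. Cd34, a progenitor surface antigen, lay between 254 and 412 CPM with EGF and between 299 and 427 CPM with saline, and Flt3, a receptor of lymphoid-primed progenitors, between 191 and 270.4 CPM with EGF and between 167 and 265 CPM with saline. In bulk RNA such as this, fewer cells of a type and less RNA per cell cannot be told apart.

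A plasma cell is the end stage of the B lineage and is devoted to the secretion of antibody. The transcription factors IRF4 and BLIMP-1 (encoded by Prdm1) drive a B cell into that state, the coactivator OBF-1 (encoded by Pou2af1) works with octamer-binding factors at immunoglobulin genes, and an enlarged endoplasmic reticulum handles the secreted load. In the bone marrow, long-lived plasma cells are kept alive by the ligand APRIL through the receptor BCMA (Tnfrsf17), while the related receptor TACI (Tnfrsf13b) is also found on B cells before that stage. The J chain, encoded by Jchain, joins IgM and IgA into polymers.

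The start regions of 3 of these genes are shown, because Jchain held most of the reads, Pou2af1 had the smallest p and Tnfrsf17 held an IRF word. Each is the RefSeq window of 300 bases on GRCm38.p6, from 250 bases before to 50 bases after the start, written 5′ to 3′ on the strand of the gene: chr5:88527848-88528147 on the minus strand for Jchain, chr9:51213440-51213739 on the plus strand for Pou2af1 and chr16:11313559-11313858 on the plus strand for Tnfrsf17. Capitals mark a match to any of 4 words, searched on both strands.
Jchain: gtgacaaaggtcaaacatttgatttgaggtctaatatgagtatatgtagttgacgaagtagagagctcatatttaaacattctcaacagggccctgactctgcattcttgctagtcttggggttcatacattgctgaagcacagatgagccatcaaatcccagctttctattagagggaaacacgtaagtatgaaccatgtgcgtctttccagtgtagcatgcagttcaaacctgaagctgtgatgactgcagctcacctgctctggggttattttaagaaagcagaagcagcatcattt
Pou2af1: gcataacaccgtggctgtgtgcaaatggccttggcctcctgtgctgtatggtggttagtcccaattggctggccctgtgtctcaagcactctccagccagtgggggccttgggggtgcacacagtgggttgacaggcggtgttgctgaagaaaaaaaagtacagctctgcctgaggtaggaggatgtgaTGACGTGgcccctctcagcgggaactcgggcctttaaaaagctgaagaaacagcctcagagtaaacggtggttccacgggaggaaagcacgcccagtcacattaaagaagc
Tnfrsf17: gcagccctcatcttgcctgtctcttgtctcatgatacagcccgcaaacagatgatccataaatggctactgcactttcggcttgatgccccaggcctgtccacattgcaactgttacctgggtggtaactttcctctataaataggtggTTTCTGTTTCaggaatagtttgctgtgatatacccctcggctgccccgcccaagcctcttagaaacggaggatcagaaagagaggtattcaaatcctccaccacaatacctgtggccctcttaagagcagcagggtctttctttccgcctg

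The words were the octamer ATGCAAAT, the pair of IRF sites (GAAANN followed by GAAA), the core GTGAAAG bound by BLIMP-1 and the core TGACGTG bound by XBP1 and ATF6. The windows of 8 members were searched, all but Mzb1. The XBP1 and ATF6 core was found in 1 of them, at position -61 of Pou2af1, and in 2.01% of all 32817 promoter windows. The IRF pair was found in 1, at position -101 of Tnfrsf17 on the other strand, and in 3.43% of all windows. The octamer and the BLIMP-1 core were found in 0 of the 8, against 1.74% and 4.24% of all windows, and no 2 matches overlapped. Positions count from the start and give the leftmost base of the match, and a match is a description of the letters in this window only.

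No plasma cell gene passed the test of EGF against saline. By edgeR's quasi-likelihood test, with p adjusted by Benjamini and Hochberg's method over the 12874 genes that passed the filter on low counts, 0 of the 9 members were called, where 0.00777% of all genes tested were. All 9 members passed that filter. At an unadjusted p under 0.05, 1 member was lower with EGF, Pou2af1, where 2.73% of all genes were lower at that level. DESeq2 called 0 members (0.435% of all genes called) but gave no adjusted p to 4 of them, Mzb1, Prdm1, Tnfrsf17 and Derl3, and 0 were called by limma-voom (0.00777%) and limma-voom with quality weights (0.0932%). For 0 of the 9 did the EGF and saline libraries separate completely, where 3.27% of all genes did.

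The fold changes nevertheless lay mostly on one side. With EGF, 8 of the 9 members had log2 fold changes under 0, as did 51.5% of all genes tested, and the median of the members was -0.73, beside -0.01 for all genes. These members and their direction were known from earlier results of the same libraries, so neither value is independent evidence. Without EGF replicate 5, again 8 of 9 were below 0, with a median of -0.41 beside -0.0002 for all genes, and edgeR called 0 members (0.0611% of all genes), as did DESeq2 (2.39%).

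Jchain was by far the most abundant member. Its level was 701, 390.5, 784, 346 and 97.4 CPM in EGF replicates 1 to 5, against 1321, 835, 583, 1146 and 601 CPM in saline replicates 1 to 5. EGF replicates 2, 4 and 5 lay below every saline library, while EGF replicates 1 and 3 lay within the saline range. The log2 fold change was -0.95 (SE 0.46, edgeR adjusted p = 0.552), from 464 ± 280 CPM in EGF libraries, against 897 ± 328 CPM in saline libraries (SD, n = 5 each). Without EGF replicate 5 it was -0.69 (SE 0.28, edgeR adjusted p = 0.267). Jchain lies on chromosome 5 from 88519809 to 88527891 on the minus strand (GRCm38), and its exons share no bases with those of other genes.

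Pou2af1, the OBF-1 coactivator gene, had the smallest p of the members. Its level was 17.4, 9.92, 15.3, 6.13 and 14.01 CPM in EGF replicates 1 to 5, against 30.8, 17.5, 13.0, 33.3 and 20.03 CPM in saline replicates 1 to 5. EGF replicates 2 and 4 lay below every saline library, and the highest saline libraries, replicates 1 and 4, were those highest for Jchain. The log2 fold change was -0.87 (SE 0.33, unadjusted p = 0.0246, edgeR adjusted p = 0.552), with 12.6 ± 4.51 CPM in EGF libraries, against 22.9 ± 8.78 CPM in saline libraries (SD, n = 5 each). It moved little when EGF replicate 5 was left out, to -0.91 (SE 0.32, edgeR adjusted p = 0.213). The gene lies on chromosome 9 from 51213708 to 51240080.

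The other regulators, Irf4 and Prdm1, varied widely among the EGF libraries. Irf4 was at 16.3, 8.24, 27.0, 12.03 and 6.58 CPM in EGF replicates 1 to 5, against 27.2, 17.9, 9.74, 22.2 and 13.2 CPM in saline replicates 1 to 5. EGF replicate 3 was thus nearly as high as the highest saline library, and EGF replicates 2 and 5 were below all of them. The log2 fold change of Irf4 was -0.36 (SE 0.40, edgeR adjusted p = 0.753), and -0.19 (SE 0.33) without EGF replicate 5. Prdm1 was at 5.02, 4.51, 9.99, 1.65 and 0.28 CPM with EGF, against 9.65, 5.97, 5.82, 10.4 and 6.94 CPM with saline. For Prdm1 4 of the 5 EGF libraries lay below every saline library, all but replicate 3, the most of any member. Its log2 fold change was -0.85 (SE 0.64, edgeR adjusted p = 0.655), and -0.56 (SE 0.38) without EGF replicate 5.

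**Figure D1:**
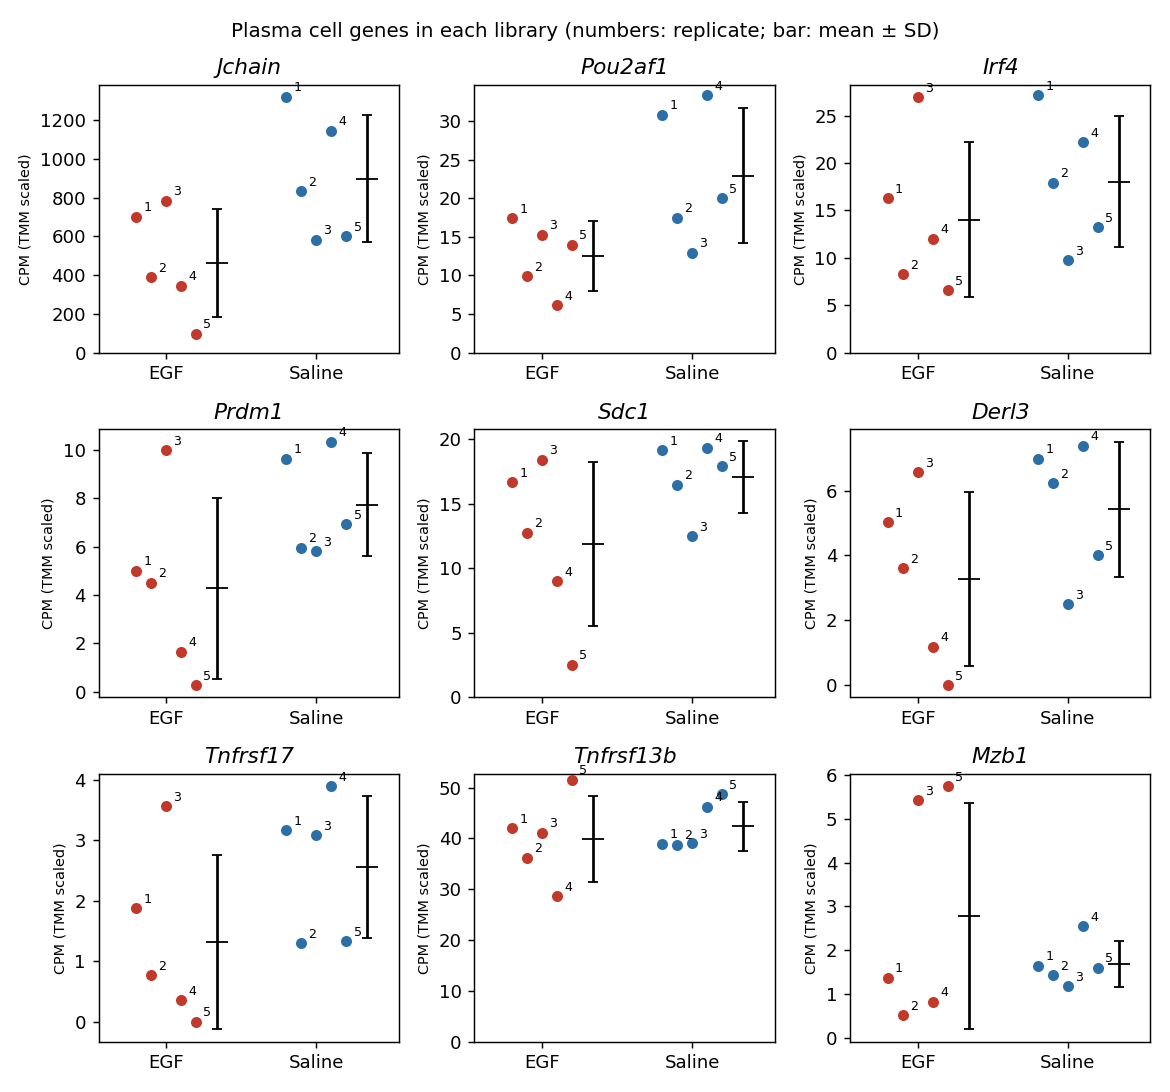
Level of each plasma cell gene (CPM, linear axes) in the 5 EGF libraries and the 5 saline libraries, with points numbered by replicate and black bars for the mean ± SD. The groups overlap for all 9 genes, EGF replicate 5 is lowest for 6 of them, and saline replicate 4 is highest for 5.

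Sdc1, Derl3 and Tnfrsf17, a surface proteoglycan, a secretory pathway gene and a survival receptor gene, were each lowest in EGF replicate 5 and next lowest, among the EGF libraries, in replicate 4. Sdc1, which encodes the plasma cell surface marker CD138, was at 16.7, 12.8, 18.4, 8.97 and 2.52 CPM in EGF replicates 1 to 5, against 19.2, 16.5, 12.5, 19.4 and 17.9 CPM in saline replicates 1 to 5. EGF replicates 4 and 5 lay below the saline range and the other 3 within it. The log2 fold change of Sdc1 was -0.52 (SE 0.41, edgeR adjusted p = 0.665), and -0.27 (SE 0.20) without EGF replicate 5. Derl3, which encodes a protein that moves misfolded proteins out of the endoplasmic reticulum, was at 5.02, 3.61, 6.56, 1.18 and 0 CPM with EGF, against 6.98, 6.22, 2.496, 7.39 and 4.01 CPM with saline. Only EGF replicates 4 and 5 of that group lay below all saline libraries for Derl3. Its log2 fold change was -0.73 (SE 0.78, edgeR adjusted p = 0.746), and -0.41 (SE 0.42) without EGF replicate 5.

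Tnfrsf17, which encodes BCMA, was sampled by few reads, 0 to 25 counts per library with EGF and 10 to 29 with saline. Its level was 1.88, 0.77, 3.57, 0.35 and 0 CPM in EGF replicates 1 to 5, against 3.17, 1.30, 3.09, 3.898 and 1.34 CPM in saline replicates 1 to 5. EGF replicates 2, 4 and 5 lay below every saline library. Its log2 fold change was -0.96 (SE 0.81, edgeR adjusted p = 0.675), and -0.66 (SE 0.56) without EGF replicate 5. In EGF replicate 5 the 0 counts of Derl3 and of Tnfrsf17 each allow a level of up to 0.42 CPM, the worth of 3 counts, which covers counting error only.

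Tnfrsf13b and Mzb1 were the members with their highest level in EGF replicate 5. Tnfrsf13b, which encodes TACI, was at 42.0, 36.2, 41.1, 28.7 and 51.6 CPM in EGF replicates 1 to 5, against 39.0, 38.8, 39.1, 46.2 and 48.7 CPM in saline replicates 1 to 5. EGF replicate 5 was the library where Jchain, Sdc1, Prdm1, Irf4, Derl3 and Tnfrsf17 were lowest. The log2 fold change of Tnfrsf13b was -0.09 (SE 0.16, edgeR adjusted p = 0.847). It was -0.20 (SE 0.12) without EGF replicate 5 and 0.012 without EGF replicate 4, so leaving out 1 library turned its sign.

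Mzb1, which encodes an endoplasmic reticulum protein that aids the assembly and secretion of IgM, was the 1 member with a log2 fold change above 0. Its level was 1.38, 0.52, 5.42, 0.83 and 5.74 CPM in EGF replicates 1 to 5, against 1.65, 1.43, 1.19, 2.55 and 1.60 CPM in saline replicates 1 to 5. EGF replicates 3 and 5 lay above every saline library, and EGF replicates 2 and 4 below every one. On the log2 scale the fold change was 0.71 (SE 0.66, edgeR adjusted p = 0.71), and 0.25 (SE 0.58) without EGF replicate 5. Limma-voom with quality weights gave -0.25. Exons of Spata24 on the same strand overlap 57.2% of the exonic bases of Mzb1, so its counts of 4 to 41 per library are uncertain.

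**Figure D2:**
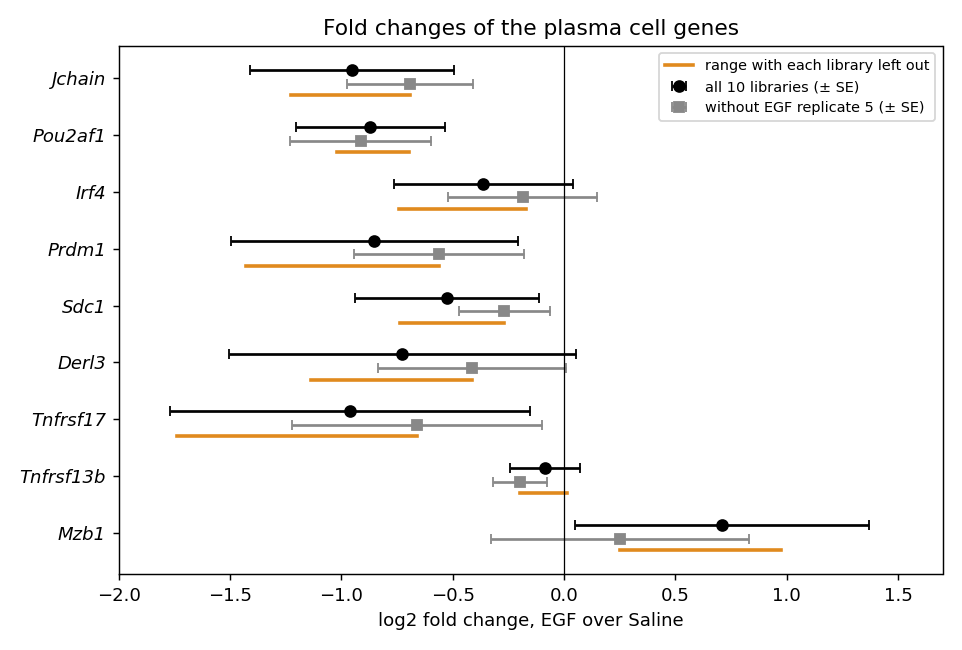
Log2 fold change of each plasma cell gene, EGF over saline, with its SE for all 10 libraries (black circles) and without EGF replicate 5 (grey squares), and the range of values with each library left out in turn (orange bars). All but Mzb1 lie below 0 with all 10 libraries, from -0.96 for Tnfrsf17 to -0.09 for Tnfrsf13b, and the orange bar of Tnfrsf13b alone crosses 0.

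Levels per length of transcript set Jchain apart from every other member. Divided by the exonic length, Jchain was at 184 ± 111 CPM per kilobase with EGF and 357 ± 130 CPM per kilobase with saline (SD, n = 5 each). Next came Tnfrsf13b, at 14.1 ± 2.96 with EGF and 14.9 ± 1.68 with saline, and Pou2af1, at 4.92 ± 1.77 with EGF and 8.997 ± 3.44 with saline (CPM per kilobase). With EGF, the order then ran through Sdc1 (3.12 ± 1.67), Irf4 (2.86 ± 1.66), Mzb1 (2.29 ± 2.13), Derl3 (1.64 ± 1.35) and Tnfrsf17 (1.61 ± 1.77) to Prdm1 (0.77 ± 0.67 CPM per kilobase), and all these neighbours differed by less than the larger of their SDs. With saline, the order ran through Sdc1 (4.48 ± 0.74), Irf4 (3.68 ± 1.41), Tnfrsf17 (3.14 ± 1.44) and Derl3 (2.72 ± 1.05) to Prdm1 (1.39 ± 0.38) and Mzb1 (1.39 ± 0.43 CPM per kilobase). Neighbours from Sdc1 to Derl3 in the saline order differed by less than the larger of their SDs. Prdm1 and Mzb1 could not be placed before one another with saline.

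Of the summed CPM of the 9 members, Jchain made up 83.6% to 86.9% in EGF replicates 1 to 4 and 54.7% in EGF replicate 5. In the saline libraries it made up 84.1% to 90.6%. That sum was 554 ± 301 CPM in EGF libraries, against 1015 ± 349 CPM in saline libraries (SD, n = 5 each). The ranges overlapped, at 178 to 912 CPM with EGF and 670.3 to 1458 CPM with saline. EGF replicates 1 to 4 alone were at 648 ± 249 CPM (SD), with a range of 406 to 912 CPM. Without Jchain the sum of the other 8 members was 90.0 ± 26.5 CPM in EGF libraries, against 118 ± 23.8 CPM in saline libraries. Over all 9 members, saline replicates 1 and 4 and EGF replicate 3 stood highest, with a median rank of 9, 10 and 8 among the 10 libraries, where rank 10 is the highest level. EGF replicates 5, 4 and 2 stood lowest, with a median rank of 1, 2 and 3, the last shared with saline replicate 3.

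The immunoglobulin constant genes Igkc, Ighm and Igha were, like Jchain, lowest in EGF replicate 5 and highest in a saline library. Igkc, the kappa light chain constant gene, was at 2326, 1366, 2307, 1163 and 565 CPM in EGF replicates 1 to 5, against 3870, 2364, 1990, 3811 and 1829 CPM in saline replicates 1 to 5, whose range overlaps that of EGF. Its log2 fold change was -0.84 (SE 0.37, edgeR adjusted p = 0.552), and -0.63 (SE 0.26) without EGF replicate 5. Ighm, the constant gene of IgM, had -0.89 (SE 0.44, edgeR adjusted p = 0.552), and Igha, that of IgA, -0.77 (SE 0.49, edgeR adjusted p = 0.610). Without EGF replicate 5 these were -0.67 (SE 0.34) for Ighm and -0.52 (SE 0.37) for Igha.

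The ratio of Jchain to Igkc varied less than either gene in all libraries but EGF replicate 5. It was 30.2, 28.6, 34, 29.7 and 17.2 Jchain counts per 100 Igkc counts in EGF replicates 1 to 5, against 34.1, 35.3, 29.3, 30.1 and 32.9 in saline replicates 1 to 5. EGF replicate 5 alone lay outside 28.6 to 35.3. Without it the mean was 30.6 ± 2.355 (SD, n = 4) with EGF, against 32.3 ± 2.58 (SD, n = 5) with saline, less than 1 SD apart. Over those 9 libraries Jchain itself ranged from 346 to 1321 CPM. Jchain was also set against the heavy chains that the J chain joins, per 100 counts of Ighm and Igha together. EGF replicates 1 to 4 had 19.3 to 20.8 Jchain counts, EGF replicate 5 had 13.0 and the saline libraries 19.2 to 24.7.

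**Figure D3:**
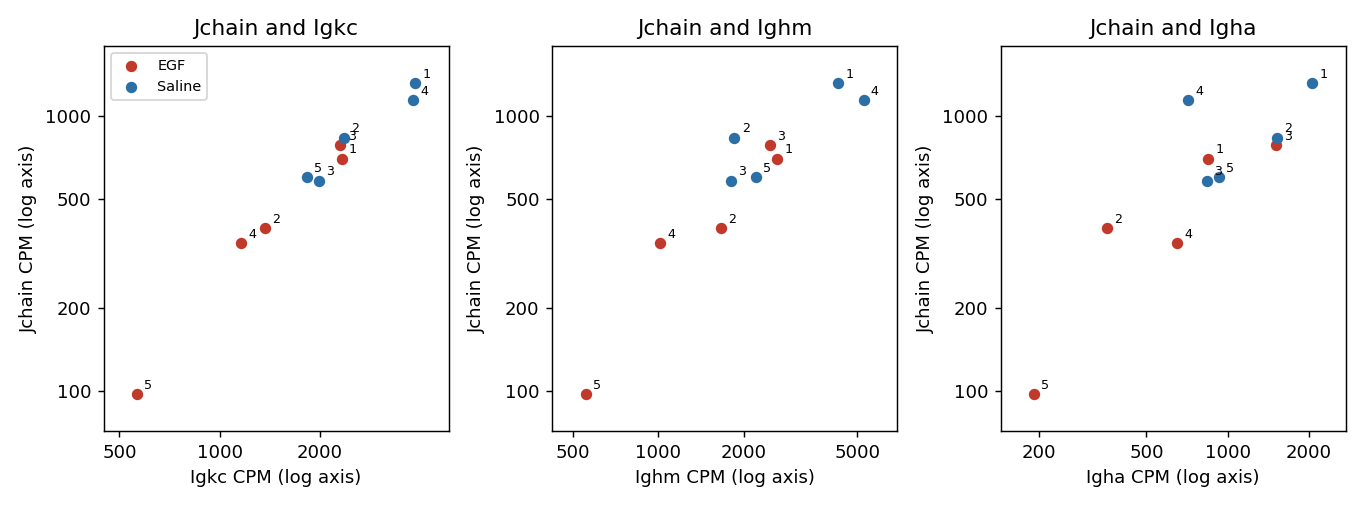
Jchain level against the levels of Igkc, Ighm and Igha (CPM, both axes log) in the 5 EGF libraries (red) and 5 saline libraries (blue), numbered by replicate. Jchain and Igkc are lowest together in EGF replicate 5 (97.4 and 565 CPM) and highest together in saline replicate 1 (1321 and 3870 CPM), and the groups overlap in the middle of the range.

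Among 12865 other genes tested, the 5 whose log2 CPM was most like the mean log2 CPM of the members over the 10 libraries were Igkc (Pearson r 0.96, Spearman rho 0.94), Ighm (0.95 and 0.94), Nuggc (0.95 and 0.98), Bhlhe41 (0.95 and 0.92) and Sema3d (0.93 and 0.88). These genes were taken for their likeness, so no p is given, and all 10 points include EGF replicate 5. Without that library r was between 0.90 and 0.92 for the 5. Nuggc, a GTPase gene named for germinal centres, and Bhlhe41, a transcription factor gene, were sampled by 0 to 19 and 0 to 35 counts per library. Sema3d, a secreted semaphorin gene, had 1 to 76 counts per library with EGF and 40 to 117 with saline.

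Of 14 other plasma cell genes 13 were tested, and 10 lay under 0 on the log2 fold change scale (median -0.29), beside 51.5% of all genes tested. Without EGF replicate 5, 9 of the 13 lay under 0 and the median was -0.17. With all 10 libraries 0 were called by edgeR, DESeq2 or either form of limma-voom. DESeq2 gave no adjusted p to Slamf7, Cd28, Eaf2, Cacna1s, Fkbp11 and Cd38, so it could not call them. Cd28, a costimulatory receptor gene of plasma cells and T cells, was at 2.74 ± 1.62 CPM in EGF libraries, against 5.69 ± 1.53 CPM in saline libraries (SD, n = 5 each; log2 fold change -1.05, SE 0.49, edgeR adjusted p = 0.552). Xbp1, the transcription factor gene of the secretory program, was at 76.6 ± 11.9 CPM in EGF libraries, against 93.9 ± 17.0 CPM in saline libraries (log2 fold change -0.29, SE 0.14, edgeR adjusted p = 0.552). Txndc5, a disulfide isomerase gene, had -0.53 (SE 0.30, edgeR adjusted p = 0.584) and Zbtb20, a zinc finger transcription factor gene, 0.28 (SE 0.09, edgeR adjusted p = 0.552). Leaving out EGF replicate 5 gave -0.79 for Cd28, -0.22 for Xbp1, -0.31 for Txndc5 and 0.27 for Zbtb20. Of the 12 immunoglobulin constant genes, 8 were tested, 8 were below 0 (median -0.87; without EGF replicate 5, 9 of 9 and -0.67) and 0 were called. In that list Iglc2 had -2.09 (SE 0.67) and Iglc3 -1.08 (SE 0.59), lambda constant genes that are near copies of one another and whose counts are therefore uncertain.

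In the list of genes of the endoplasmic reticulum and secretion, all 38 were tested, 26 were below 0 (median -0.11; without EGF replicate 5, 32 and -0.15) and 0 were called by edgeR with all 10 libraries. At an unadjusted edgeR p under 0.05, 8 of the 38 were lower and 2 higher, where 352 of all 12874 genes tested were lower and 790 higher. For 6 of the 38 the EGF libraries all lay below the saline libraries, where 1.65% of all genes did: Edem2, Ssr3, Pdia6, Herpud1, Spcs3 and Ssr4, of which the last 4 were named after their values were seen. Edem2, of the degradation of misfolded glycoproteins, was at 39.6 ± 4.32 CPM in EGF libraries, against 52.8 ± 5.001 CPM in saline libraries (SD, n = 5 each; log2 fold change -0.42, SE 0.11, edgeR adjusted p = 0.552). Ssr3, a subunit of the translocon-associated complex, was at 183 ± 32.7 CPM in EGF libraries, against 243 ± 21.5 CPM in saline libraries (log2 fold change -0.41, SE 0.13, edgeR adjusted p = 0.552). Sec61b, a translocon subunit, had -0.56 (SE 0.18) and Ern1, the sensor IRE1 that activates XBP1, 0.47 (SE 0.15). DESeq2 without EGF replicate 5 called 7 of the 38, these 6 and Sec61b, all lower, where it called 0.992% of all genes lower. With all 10 libraries it called 0 of the 38, but gave no adjusted p to Ddit3 and Srp54a.

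Of the receptors, ligands and signalling genes of plasma cell survival, 12 of 14 were tested, 7 were below 0 (median -0.16; without EGF replicate 5, 6 of 12 and -0.04) and 0 were called by edgeR. Il6st, the shared signalling subunit of the IL-6 receptor family, was at 64.4 ± 5.54 CPM in EGF libraries, against 85.1 ± 10.4 CPM in saline libraries (SD, n = 5 each; log2 fold change -0.40, SE 0.11, edgeR adjusted p = 0.552). Cxcr4, the receptor that holds plasma cells and progenitors in the marrow, was at 50.9 ± 5.78 CPM in EGF libraries, against 65.3 ± 9.83 CPM in saline libraries (log2 fold change -0.36, SE 0.13, edgeR adjusted p = 0.552). Both are also expressed by HSPCs, and DESeq2 without EGF replicate 5 called both lower, where it called 0.992% of all genes lower. With all 10 libraries it called 0 of this list, but gave no adjusted p to Tnfrsf13c, Relb and Cxcl12. Map3k14, the NF-kB inducing kinase gene, had 0.51 (SE 0.35) with all libraries and 0.0085 without EGF replicate 5, and Traf3, its inhibitor, 0.10 (SE 0.08).

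Markers of other cell types were set beside the members. Of 17 genes of mature B cells, 8 were tested, 3 were below 0 (median 0.07; without EGF replicate 5, 5 of 9 and -0.19) and 0 were called, and 8 of the 17 had at most 20 counts in every library. Their summed level was 102 to 128 CPM in EGF replicates 1 to 4, 158 CPM in EGF replicate 5, and 107 to 126 CPM with saline. The B cell surface gene Ms4a1 had 0 to 9 counts with EGF, against 2 to 15 with saline. Cd79a, a chain of the B cell receptor, had a log2 fold change of -1.02 (SE 0.54, edgeR adjusted p = 0.562), Cd79b 0.25 (SE 0.35), Cd72 0.34 (SE 0.19) and Ebf1 0.72 (SE 0.70). Without EGF replicate 5, which was at 30.4 CPM of Cd79b and 7.70 CPM of Ebf1, the values were -0.75 for Cd79a, -0.21 for Cd79b, 0.16 for Cd72 and -0.23 for Ebf1. Of 8 genes of B progenitors 4 were tested, 3 were below 0 (median -0.19; without EGF replicate 5, 2 of 4 and 0.014), with a summed level of 174 to 346 CPM with EGF and 189 to 401 CPM with saline, led by Dntt (log2 fold change -0.21, SE 0.27). Of 10 genes of plasmacytoid dendritic cells 7 were tested and 4 were below 0 (median -0.05; without EGF replicate 5, 3 of 7 and 0.02). Their summed level was 379.5 to 417 CPM in EGF replicates 1 to 4, 354 CPM in EGF replicate 5, and 312 to 421 CPM with saline. That sum was led by Tcf4, Runx2 and Irf8, at means of 144, 131.5 and 94.9 CPM with EGF and 139, 124 and 97.95 CPM with saline. Of the 10 genes, 4 had at most 20 counts in every library, among them Siglech, with 0 to 10 counts with EGF and 1 to 7 with saline. Klk1 was at 0 in every library.

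Of 10 T and NK cell genes 7 were tested and 3 were below 0 (median 0.08; without EGF replicate 5, 2 of 8 and 0.43). The sum was 54.9 to 92.7 CPM in EGF replicates 1 to 4, 52.0 CPM in EGF replicate 5, and 62.3 to 88.3 CPM with saline. In that list Il2rb, a subunit of the IL-2 receptor, had a log2 fold change of 0.94 (SE 0.35, unadjusted p = 0.0223, edgeR adjusted p = 0.552), Cd2, an adhesion receptor gene, 1.13 (SE 0.67) and Nkg7, a cytotoxic granule gene, -0.76 (SE 0.42). The values without EGF replicate 5 were 0.61 for Il2rb, 1.36 for Cd2 and -0.49 for Nkg7. Late neutrophil genes, 6 tested of 8, had a median of 0.22, and of -1.66 over 7 tested without EGF replicate 5, with a sum of 2.42 to 92.3 CPM in EGF replicates 1 to 4, 516 CPM in EGF replicate 5, and 7.23 to 386 CPM with saline. All 5 tested of 8 monocyte and macrophage genes were below 0 (median -0.32; without EGF replicate 5, 6 of 6 and -0.39), with a sum of 85.3 to 106 CPM with EGF and 59.5 to 212 CPM with saline. Of 8 erythroid genes 4 were tested and 2 were below 0 (median 0.17; without EGF replicate 5, 1 of 6 and 0.20), with a sum of 14.8 to 33.5 CPM with EGF and 14.1 to 31.3 CPM with saline. Of the 14 HSPC markers 6 were below 0 (median 0.11; without EGF replicate 5, 4 and 0.05). Those of smallest p were Meis1 (log2 fold change 0.34, SE 0.12), Kit (0.18, SE 0.07), Mpo (-0.63, SE 0.26) and Gata2 (0.32, SE 0.15). Without EGF replicate 5 they had 0.27, 0.18, -0.66 and 0.26, in that order. In these lists edgeR called 0 genes with all 10 libraries or without EGF replicate 5, DESeq2 without that library called 1, Nkg7, which was lower (2.39% of all genes called, 0.992% lower), and the part of these cells in the levels of the plasma cell genes was not tested.

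**Figure D4:**
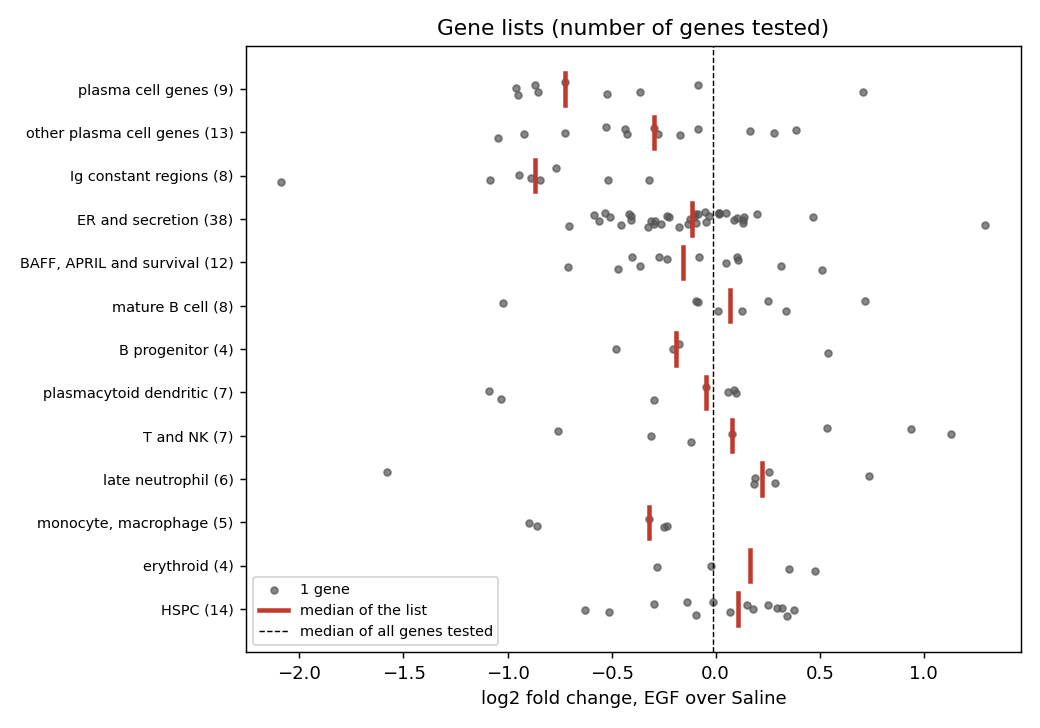
Log2 fold change, EGF over saline, of each gene tested in 13 lists (grey points), with the median of each list (red bar) and of all genes tested (dashed line, -0.01). The medians of the plasma cell genes (-0.73) and of the immunoglobulin constant regions (-0.87) lie farthest below 0 with all 10 libraries, while without EGF replicate 5 that of the late neutrophil genes (-1.66) does.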

How the data were processed

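Bone marrow HSPCs of irradiated mice gave 5 EGF and 5 saline libraries. Extraction used a Qiagen RNeasy Micro kit and library preparation a Clontech kit with rRNA depletion, per the labels' protocols. The tools listed in the submitters' processing notes are STAR and bcl2fastq 2.17, and the builds mm10 and GRCm38. No source used here gives the counting tool, its strand setting or its annotation, so reads of a gene and its antisense partner may be mixed. Each deposited file holds raw, whole-number read counts for 55573 genes. GENCODE M21, which holds 55394 of the IDs, gave positions and exonic lengths. No 2 libraries were repeats (chi-square per degree of freedom 5.48 to 114).

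The test was edgeR 4.0.16 (R 4.3.3) with TMM scaling, filterByExpr (minimum count 10), the quasi-likelihood F test over all 10 libraries and Benjamini-Hochberg adjustment over all genes, threshold 0.05, checked on simulated counts. SEs come from the F statistic. CPM are TMM scaled, and likeness used log2 CPM with a prior count of 2. Alternatives were other scalings, filters and tests (DESeq2 1.42.0, limma 3.58.1), leaving out single libraries, a robust fit and the replicate number as a block. DESeq2 without EGF replicate 5 was added after seeing the data. Members and lists were chosen with earlier results of these data known. Genes were named by a rule: all members, Ighm, Igha, Igkc, Kit, Cd34 and Flt3, up to 4 tested genes of smallest p per list, any called gene, and the 5 most like the members. Not every gene the rule took is given.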

Additional observations from a re-analysis of the deposited data

How the results depend on the processing

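The count of members called was 0 under all 21 alternatives, and the lowest adjusted p of any member under any of them was 0.204 (Pou2af1, DESeq2 without EGF replicate 5). Each member kept the sign of its log2 fold change under all 21, except Mzb1 with limma-voom with quality weights (-0.25) and Tnfrsf13b without EGF replicate 4 (0.012); the causes were not tested. Limma-voom with quality weights gave -0.32 for the median of the members (-0.73 by edgeR), -0.55 for Jchain, -0.22 for Sdc1, -0.32 for Derl3, -0.16 for Irf4 and -0.16 for Tnfrsf13b. Limma-voom gave -1.77 for Tnfrsf17, -1.62 for Derl3, -1.49 for Prdm1 and 0.099 for Mzb1, and the replicate block -1.50 for Tnfrsf17, -1.28 for Derl3, -1.36 for Prdm1 and 0.19 for Mzb1. With single libraries left out, the log2 fold change ranged from -1.23 to -0.69 for Jchain, -1.02 to -0.70 for Pou2af1, -1.43 to -0.56 for Prdm1, -0.74 to -0.17 for Irf4, -0.74 to -0.27 for Sdc1, -1.14 to -0.41 for Derl3, -1.74 to -0.66 for Tnfrsf17, -0.20 to 0.012 for Tnfrsf13b and 0.25 to 0.98 for Mzb1. The difference in summed CPM of the 9 members, EGF minus saline, was -461, with a range of -551 to -350.5 when a library was left out and -27.8 without Jchain, by the construction of the sum. Over all genes edgeR called 1, against 0 with library size scaling, 0 with the replicate block, 12 by limma-voom with quality weights (8 higher, 4 lower), 56 by DESeq2 (36 higher, 20 lower) and 313 by DESeq2 without EGF replicate 5 (183 higher, 130 lower). With each library left out in turn the count was 0 to 8, highest without EGF replicate 5. Same-numbered libraries did not deviate together (correlations -0.08 to 0.02), which cannot show whether the numbers pair them. The labels do not say that they do, and the block changed no call of a member. Counts of at most 29 per library limit Tnfrsf17, and of at most 41 Mzb1. Among the 9 members, no library was flagged as an outlier of its group of 5 by Dixon's ratio (cutoff 0.71). With 5 libraries per group that check has little power, so it does not clear EGF replicate 5.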
